A study of Mus musculus with 10 samples.

Results

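The 4 genes that encode calcium/calmodulin-dependent protein kinase II, Camk2a, Camk2b, Camk2d and Camk2g, were examined in the forebrain of mouse embryos, out of 19936 genes measured on the same arrays. They were chosen by name, and each was read by the 1 probe set whose annotation names that gene alone, so no choice between probe sets was needed. Camk2a had a particular place in this study, because its promoter was used to drive the transgene. The question asked here was how active this gene and its 3 relatives were at E12.5, and whether their readings differed when the transgene was present.

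RNA came from the forebrains of 10 embryos of a CD1/NMRI mixed background at E12.5, with 1 Affymetrix Mouse Gene ST array for each embryo. In 5 transgenic embryos (dtg in the titles) a constitutively active FoxO3 was placed under the forebrain-specific CaMKIIa promoter. FoxO3 is a transcription factor that leaves the nucleus when insulin signalling is strong. The other 5 embryos (stg) are labelled as controls, and the labels do not say which transgene, if any, they carry. The 10 embryos are from 2 dams, and which dam bore which embryo is not recorded in the labels, so litter and group cannot be told apart. Values are log2 intensities, on which a difference of 1 is a doubling of signal. The labels do not say whether the construct carries transcribed Camk2a sequence, so the Camk2a reading may not be of the endogenous gene alone. In bulk tissue, fewer cells of a type and less RNA per cell cannot be told apart.

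CaM kinase II is a multi-subunit enzyme that calcium-loaded calmodulin switches on. Its subunits then phosphorylate each other, which lets the kinase stay active after calcium has fallen. The alpha and beta subunits, from Camk2a and Camk2b, are the neuronal forms and are best known for synaptic plasticity in the mature forebrain, where Camk2a marks excitatory neurons. The delta and gamma subunits, from Camk2d and Camk2g, are found in many tissues, with delta prominent in heart. In the mouse brain Camk2a transcripts are known to become abundant mostly after birth, later than those of Camk2b.

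RefSeq (GRCm38.p6) places the 4 members on 4 different chromosomes. The sequence upstream of a start site was compared for the 2 members used here, Camk2b and Camk2d, because the FoxO3 transgene makes a FOXO motif there of interest. Each line holds the 250 bases before 1 start site that the RefSeq promoter table lists for the gene, 5′ to 3′ on the gene's strand, with CG pairs in capitals. Both windows lie inside the gene's full RefSeq span, which begins further upstream.

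Camk2b, chr11:6065749-6065998, minus strand: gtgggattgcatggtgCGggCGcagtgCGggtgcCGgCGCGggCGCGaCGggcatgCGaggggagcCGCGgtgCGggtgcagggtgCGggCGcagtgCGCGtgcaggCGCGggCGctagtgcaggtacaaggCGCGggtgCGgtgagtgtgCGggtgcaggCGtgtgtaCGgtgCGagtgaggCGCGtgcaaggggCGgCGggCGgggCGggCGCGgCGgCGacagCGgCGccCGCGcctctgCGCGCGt

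Camk2d, chr3:126596701-126596950, plus strand: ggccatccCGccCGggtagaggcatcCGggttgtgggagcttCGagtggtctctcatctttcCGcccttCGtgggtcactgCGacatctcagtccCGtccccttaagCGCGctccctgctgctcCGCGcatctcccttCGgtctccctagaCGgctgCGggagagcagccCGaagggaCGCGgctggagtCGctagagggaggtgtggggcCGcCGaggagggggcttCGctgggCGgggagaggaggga

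Both windows were rich in CG pairs. Camk2b had 44 of them with 78.4% G or C, and Camk2d had 23 with 68.4%, against a median of 6 pairs and 52.4% over 32851 RefSeq windows of the same length. The FOXO core motif GTAAACA, searched on both strands, had no match in either window. It occurred in 3.17% of all windows, and a missing match says only that these letters are not in the window.

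Before the members are described, the arrays themselves need 1 remark. Array medians lay between 5.36 and 5.39, and correlations between arrays over all genes between 0.98 and 0.996. Control embryo 5 stood apart, with a mean of 7.27 over 14 pan-neuronal markers (Tubb3, Map2, Dcx and others) against 8.22 to 8.79 in the other 9 embryos. It also had the highest mean of 7 mesenchyme markers, at 8.63, with 6.35 to 7.52 in the others. Of 7 measured forebrain markers, Lhx2 was the brightest, at 8.99 to 9.95, while the ventral forebrain gene Dlx1 ran from 4.82 to 9.38. Regional markers thus differed between embryos of the same label.

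Camk2a read above a list of genes typical of other adult organs, though not above every muscle marker, and near the middle of the arrays' scale. Its log2 intensity lay between 5.73 and 6.42 over the 10 embryos, which placed it between the 50.4th and the 61.5th percentile of all genes. As a guide to background, 15 genes typical of other adult organs, such as Alb of liver and Prm1 of sperm, had means up to 5.41, with a median of 4.12. The highest single reading among them was 5.63, of Krt10, a keratin of skin. Every Camk2a reading was above that value. Of 6 muscle and heart markers, which are not in that list, Acta1 read 5.97 to 6.29, within the Camk2a range. Ckm reached 5.75, above the lowest Camk2a reading, while Myh6, Myl7, Tnnt2 and Myog read up to 5.11. Probe sets respond differently, and the table has no detection call, so the position of Camk2a is no measure of transcript number. Adult forebrain was not analysed here, so the reading cannot be set against the gene's mature level.

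Camk2b lay between 5.39 and 6.12 (45.9th to 56.3rd percentile) and Camk2d between 5.80 and 6.05 (51.5th to 55.1st percentile). The Camk2b readings of control embryo 5 (5.39), transgenic embryo 2 (5.60) and transgenic embryo 4 (5.58) were below the Krt10 reading of 5.63. Camk2g lay between 7.00 and 7.42, in the 71.8th to 77.9th percentile. For Camk2g all readings were thus near the upper quartile of all genes, which was 7.21, whereas the other 3 members were near the median of 5.69.

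**Figure D1:**
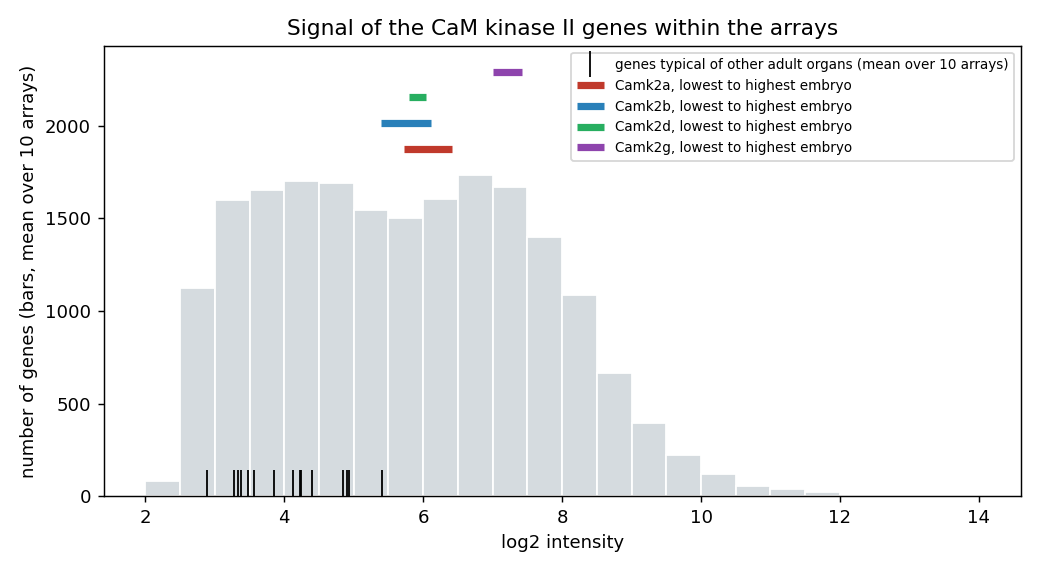
Signal of the CaM kinase II genes within the arrays. Grey bars count genes by their mean log2 intensity over 10 arrays; coloured lines run from the lowest to the highest embryo for each member, and black ticks are 15 genes typical of other adult organs, with means up to 5.41. Camk2a, Camk2b and Camk2d lie near the middle of the distribution and Camk2g lies higher, at 7.00 to 7.42.

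None of the 4 members passed an adjusted p of 0.05 in limma between transgenic and control forebrains, and 1, Camk2a, had an unadjusted p below 0.05. Over all genes 0.105% passed and 7.58% had an unadjusted p below 0.05. In none of the 4 were the groups fully separated, which 1.6% of all genes were.

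Camk2a had the largest difference of the 4, and its mean was lower in transgenic embryos. The transgenic embryos 1 to 5 read 5.90, 5.73, 6.02, 5.89 and 6.07. The controls 1 to 5 read 6.42, 6.42, 6.01, 6.15 and 6.16. Transgenic embryos 1, 2 and 4 lay below all controls, while transgenic embryos 3 and 5 lay just above control embryo 3, so the groups overlapped. All 5 transgenic values were below the control mean. The means were 5.92 ± 0.13 (SD, n = 5) and 6.23 ± 0.18 (SD, n = 5).

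The Camk2a difference of -0.31 ± 0.092 (SE) on the log2 scale corresponds to 80.6% of the control signal, with a 95% interval from 70.2% to 92.7%. The unadjusted p was 0.00553, the 281st smallest of all genes, and the adjusted p was 0.391 in limma, so this difference did not pass. In absolute size it was above 97.1% of all genes. Leaving out 1 embryo at a time gave differences from -0.37 to -0.26, all in the same direction, and adjusted p between 0.337 and 0.659.

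Regional markers were compared in the same embryos. The 7 measured forebrain markers were Emx1, Emx2, Lhx2, Dlx1, Dlx2, Gsx2 and Six3, mostly genes of the telencephalon, the front part of the forebrain. Of these, 6 were lower in transgenic embryos, none passed, and 1 had an unadjusted p below 0.05. The mean of the 7 was 6.94 to 7.26 in transgenic and 6.57 to 7.69 in control embryos. Control embryos 1 and 2, the highest for Camk2a, also had the highest forebrain means, at 7.67 and 7.69. Control embryo 5, the third highest for Camk2a at 6.16, had the lowest forebrain mean, at 6.57, and that of control embryo 3 lay within the transgenic range, at 6.98. Thalamus is also part of the forebrain, so neither list measures forebrain tissue as a whole. The mean of 7 markers, listed here for thalamus and the border of the dissection, was 7.01 to 7.96 in transgenic embryos. In control embryos it was 5.78 to 7.38, and the groups overlapped. All 7 were higher in transgenic embryos and none passed, while 6 had an unadjusted p below 0.05 (7.58% of all genes did). Of 7 markers of excitatory forebrain neurons, the cells in which Camk2a is best known, 5 were lower and 2 higher, and their mean was 7.08 to 7.36 in transgenic and 7.26 to 7.57 in control embryos. None of these passed either, and 4 of the lower and 2 of the higher had an unadjusted p below 0.05. The part of these regional differences in the Camk2a reading was not tested.

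The 3 other members gave smaller differences. Camk2b, the neuronal subunit that also binds actin, read 6.12, 5.60, 5.83, 5.58 and 5.82 in transgenic embryos 1 to 5. In controls 1 to 5 it read 5.85, 5.93, 5.80, 5.88 and 5.39. Transgenic embryo 1 was the highest and control embryo 5 the lowest of all, and the groups overlapped almost fully. The Camk2b difference was 0.020 ± 0.12 (SE, limma adjusted p = 0.984), with a 95% interval from -0.24 to 0.28. It was -0.075 without control embryo 5 and -0.062 without transgenic embryo 1, so its sign changed with the embryos included.

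Camk2d, a broadly expressed subunit, was the steadiest member. It read 6.05, 5.80, 5.91, 5.89 and 5.99 in transgenic embryos 1 to 5, and 5.97, 5.91, 5.89, 5.96 and 5.90 in controls 1 to 5. Its pooled within-group SD of 0.073 was larger than that of only 12.0% of all genes. The highest and the lowest reading were both of transgenic embryos. The Camk2d difference was -0.00069 ± 0.056 (SE, limma adjusted p = 0.999), and its 95% interval of -0.12 to 0.12 leaves room for changes between 91.8% and 109% of the control signal.

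Camk2g, the other broadly expressed subunit, read 7.26, 7.14, 7.03, 7.23 and 7.42 in transgenic embryos 1 to 5. In controls 1 to 5 it read 7.10, 7.13, 7.00, 7.30 and 7.10. In transgenic embryo 5 it was above all controls, and 4 of 5 transgenic values were above the control mean, but the groups overlapped. The Camk2g difference was 0.090 ± 0.079 (SE, limma adjusted p = 0.852), with a 95% interval from -0.081 to 0.26. Camk2d and Camk2g are also used by muscle and heart. The 6 muscle and heart markers had a mean of 4.89 to 4.97 in transgenic and 4.85 to 4.95 in control embryos. They ran from Myh6, at 3.94 to 4.28, to Acta1, at 5.97 to 6.29, with the myogenic factor gene Myog at 4.36 to 4.59. None of the 6 passed in limma, and 1, higher in transgenic embryos, had an unadjusted p below 0.05 (7.58% of all genes did).

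**Figure D2:**
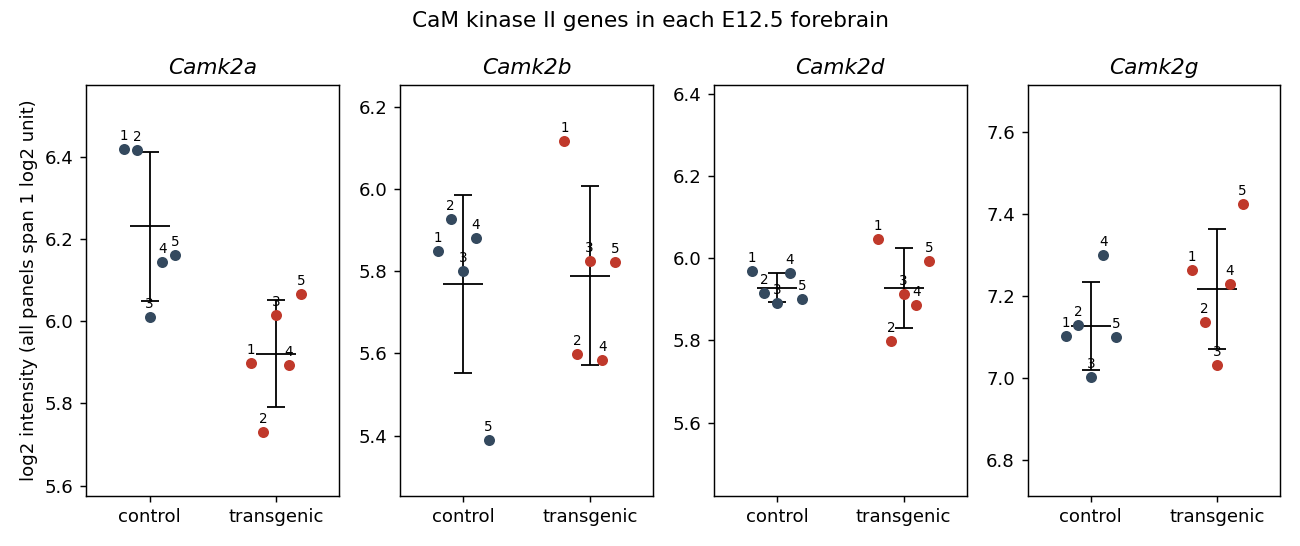
Log2 intensity of each CaM kinase II gene by embryo, with the embryo's number beside each point, the group mean as a horizontal line and bars of 1 SD (n = 5 per group). Every panel spans 1 log2 unit; Camk2a is lower in transgenic embryos with some overlap, and the other 3 genes overlap broadly.

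No pair of members had a relation that passed over the 10 embryos, which does not show that they vary apart. As deviations from group means, r was positive for all 6 pairs, from 0.23 to 0.70, and none passed. Among 6 pairs of members, r was highest for Camk2b with Camk2d, at 0.69 (rho = 0.75; permutation p = 0.0276 and 0.0173), which did not pass when adjusted over 10 relations (adjusted p = 0.138 and 0.0575). It was 0.70 without the 2 embryos farthest from the Camk2b median (permutation p = 0.0554). Camk2a had r of 0.20 with Camk2b, 0.32 with Camk2d and -0.13 with Camk2g, with permutation p of 0.58, 0.368 and 0.728. The corresponding rho values were 0.31, 0.47 and -0.15 (permutation p = 0.387, 0.178 and 0.683). Camk2b with Camk2g and Camk2d with Camk2g had r of 0.24 and 0.52 and rho of 0.28 and 0.45, and neither passed (permutation p = 0.512 and 0.121 for r, 0.426 and 0.19 for rho). All adjusted p of these 5 pairs were 0.38 or more, and r without the farthest embryos was -0.050, 0.42, 0.11, -0.013 and 0.66 in the same order.

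Camk2b was the only member whose r with neuronal content passed over all 10 embryos. Against the mean of 14 pan-neuronal markers its r was 0.86 (permutation p = 0.0011, adjusted p = 0.011) and its rho 0.78 (permutation p = 0.0109, adjusted p = 0.0547). Within groups, as deviations from the group means, r was 0.91 (permutation p = 0.00038, adjusted p = 0.0038). Control embryo 5 was kept there, and deviations were shuffled across both groups, so this p is approximate and may be too small. Without control embryo 5 and transgenic embryo 1, which were farthest from the median of the neuronal mean, r was 0.66 (permutation p = 0.0961, adjusted p = 0.24). Without control embryo 5 alone it was 0.76 (permutation p = 0.0172, adjusted p = 0.0701). The call of the Camk2b relation thus rests on control embryo 5, where both readings were the lowest.

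For Camk2a the relation to the pan-neuronal mean did not pass, with r of -0.0097 and rho of 0.067 (permutation p = 0.978 and 0.867, adjusted p = 0.978 and 0.867). Within groups r was 0.44 (permutation p = 0.205), and without control embryo 5 and transgenic embryo 1 it was 0.44 (permutation p = 0.273). For Camk2d r was 0.47 (permutation p = 0.173, adjusted p = 0.433) but rho was 0.78 (permutation p = 0.0104, adjusted p = 0.0547). Its rho was thus the same as that of Camk2b. Without control embryo 5 the Camk2d r was 0.74 (permutation p = 0.021, adjusted p = 0.0701) and rho 0.80, beside a Camk2b rho of 0.70. Without those 2 embryos the Camk2d r was 0.63 (permutation p = 0.0954) and rho 0.71, beside 0.57 for Camk2b. Camk2g had r of 0.27 and rho of 0.32 (permutation p = 0.45 and 0.365, adjusted p = 0.725 and 0.533), and r of 0.12 without those 2 embryos. Of 14 pan-neuronal markers 13 were higher and 1 lower in transgenic embryos and none passed. The difference in their mean was 0.32, and 0.086 without control embryo 5. The Camk2a difference was -0.31, and -0.33 without that embryo. The part of neuron content in the Camk2a reading was not tested.

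**Figure D3:**
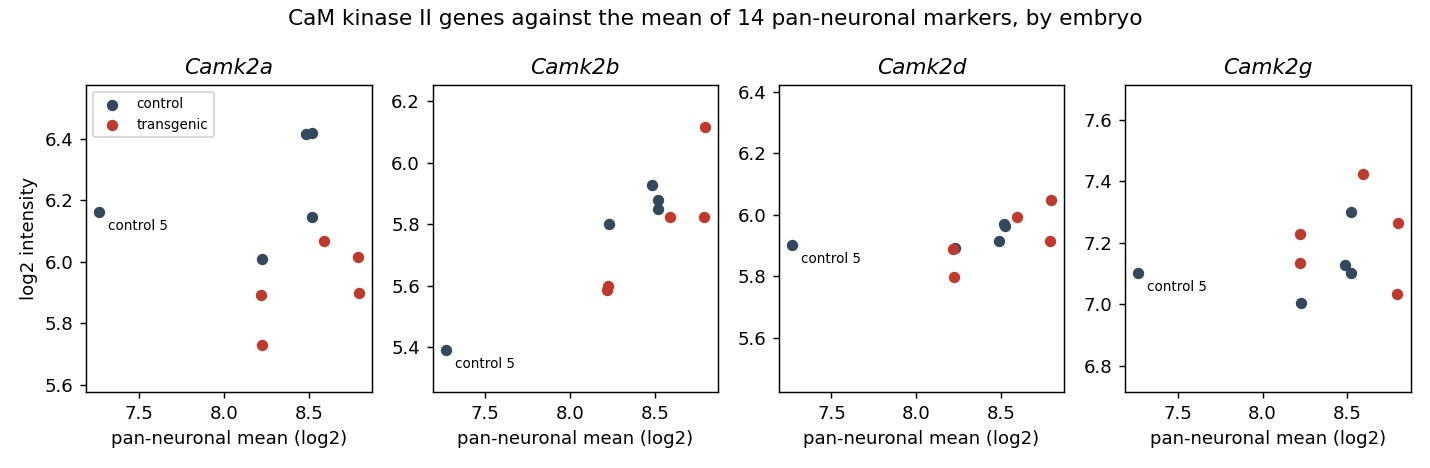
Log2 intensity of each CaM kinase II gene (vertical axes, each spanning 1 log2 unit) against the mean log2 intensity of 14 pan-neuronal markers in the same embryo; 5 control and 5 transgenic embryos. Control embryo 5 lies far left, at 7.27; r with the neuronal mean is 0.86 for Camk2b and -0.0097 for Camk2a.

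The genes most like each member were found by Pearson's r over the 10 arrays, as a description of these embryos. For Camk2a the 5 highest were Aff2 (r = 0.96), Yrdc (0.94), Xpo6 (0.93), Meis2 (0.93) and Fbrsl1 (0.90). Meis2 encodes a homeodomain factor of the developing striatum, and Aff2 a nuclear protein of the AF4 family. Aff2 was also the closest to Camk2a without control embryo 5 (r = 0.98). All 5 were lower in transgenic embryos, by -0.32 for Aff2 and -0.57 for Meis2, and none passed. They were chosen for likeness to Camk2a over both groups, so a shared direction follows largely from the choice and is no separate result.

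For Camk2b the 5 most similar genes were Cnksr2 (r = 0.96), Gramd1a (0.95), Cadm4 (0.95), Grid1 (0.95) and Atp6v1h (0.95). Cnksr2 encodes a synaptic scaffold protein and Grid1 a glutamate receptor of the delta family. Without control embryo 5 their r was between 0.91 and 0.94. For Camk2d they were Erich6b (0.97), Pfkfb3 (0.92), Neurl2 (0.92), Pcdhb18 (0.91) and Vti1b (0.90), and for Camk2g they were Osbpl9 (0.96), Pfkfb2 (0.95), Mir370 (0.92), Ube2a (0.91) and Akr1b8 (0.91). Erich6b, the closest to Camk2d, read only 3.35 to 3.83. The highest of 19935 correlations over 10 arrays are large by selection, and genes in 1 tissue share its cell makeup.

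The pathway around the kinase was described with 7 lists of 42 genes, of which 37 were measured. Of these, 25 were higher and 12 lower in transgenic embryos, with a median difference of 0.033 on the log2 scale. Over all genes 48.1% were higher and the median was -0.0038. None of the 37 passed in limma, and 1 had an unadjusted p below 0.05, which is 2.7% of them against 7.58% of all genes. The median of the 37 was 0.0017 without control embryo 5 and up to 0.076 without transgenic embryo 4.

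That 1 gene was Camk2n1, which encodes a small inhibitor that binds the active kinase. It read 7.26, 7.08, 7.09, 6.72 and 7.00 in transgenic embryos 1 to 5. In controls 1 to 5 it read 6.75, 6.58, 6.62, 6.72 and 6.18. Only transgenic embryo 4 lay within the control range. The Camk2n1 difference was 0.46 ± 0.12 (SE, unadjusted p = 0.0021, limma adjusted p = 0.238), with a 95% interval from 0.20 to 0.72, and it ran from 0.36 to 0.54 when 1 embryo was left out. The related inhibitor gene Camk2n2 read 0.028 ± 0.11 (SE, limma adjusted p = 0.978). The differences of Camk2a, at -0.31, and of Camk2n1, at 0.46, were of opposite sign, and neither passed.

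No other regulator of the kinase had an unadjusted p below 0.05. Among the 8 inhibitors and phosphatases, Camk2n1 included, 6 were higher and 2 lower, with a median of 0.031. That median was -0.014 without control embryo 5, 0.012 without transgenic embryo 1, 0.017 without transgenic embryo 3 and 0.054 without transgenic embryo 4. The phosphatase catalytic subunit genes Ppp1cc and Ppp1ca read -0.077 and 0.033, and Ppm1e, whose product removes phosphate from CaM kinases, read 0.088. The calmodulin genes Calm2 and Calm3, whose product is the activator, read -0.034 and 0.024 (limma adjusted p = 0.928 and 0.968), with controls at 11.5 and 9.74 on the log2 scale. The 4 calcineurin subunit genes, of the phosphatase that calmodulin also activates, were 2 higher and 2 lower, from -0.072 for Ppp3cb to 0.031 for Ppp3cc, with Ppp3r1 at -0.052 and Ppp3ca at 0.029. The list medians were -0.0051 for calmodulin and -0.011 for calcineurin, and both changed sign in some of the 10 fits that left out 1 embryo. The calmodulin median ran from -0.040 without control embryo 5 to 0.015 without transgenic embryo 4, and the calcineurin median from -0.054 without transgenic embryo 1 to 0.012 without transgenic embryo 4.

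Related kinases were 5 higher and 2 lower of 7 measured, with a median of 0.11. That median was 0.041 without transgenic embryo 1, 0.048 without control embryo 3 and 0.064 without control embryo 5. Camk1d, Camk1 and Camk1g, of the CaM kinase I branch, read 0.13, 0.18 and 0.19, and the kinase-like gene Camkv read -0.13. The smallest adjusted p among the 7 was 0.683 in limma. All 3 calmodulin-binding buffer genes were higher, with Gap43 of growing axons at 0.41, Pcp4 at 0.12 and Nrgn at 0.11, and a median of 0.12. Gap43 had its lowest reading, 8.87, in control embryo 5.

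Synaptic partners and substrates were 7 higher and 4 lower of 11 measured. Their median of 0.18 was 0.0017 without control embryo 5, 0.065 without transgenic embryo 5, 0.12 without transgenic embryo 1 or control embryo 3, and 0.28 without control embryo 2. The glutamate receptor subunit genes Grin2a and Grin2b read 0.32 and 0.39, the synaptic vesicle gene Syn1 0.22 and the scaffold gene Dlg4 0.22, with limma adjusted p from 0.696 to 0.842. Of 2 nuclear substrates, Creb1 read 0.10 and Hdac4 -0.025, with a median of 0.038, which was 0.022 without control embryo 5 and 0.025 without transgenic embryo 2. Foxo3, the gene that the transgene encodes, read 0.34 ± 0.085 (SE, limma unadjusted p = 0.0018, adjusted p = 0.218) and did not pass either. Of the 5 transgenic embryos, 4 lay above all controls, and transgenic embryo 4 lay within the control range. Probe sequences were not used here, so whether the Foxo3 probe set reads the transgene's transcript was not examined. The Foxo3 difference is therefore no test of transgene expression.

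**Figure D4:**
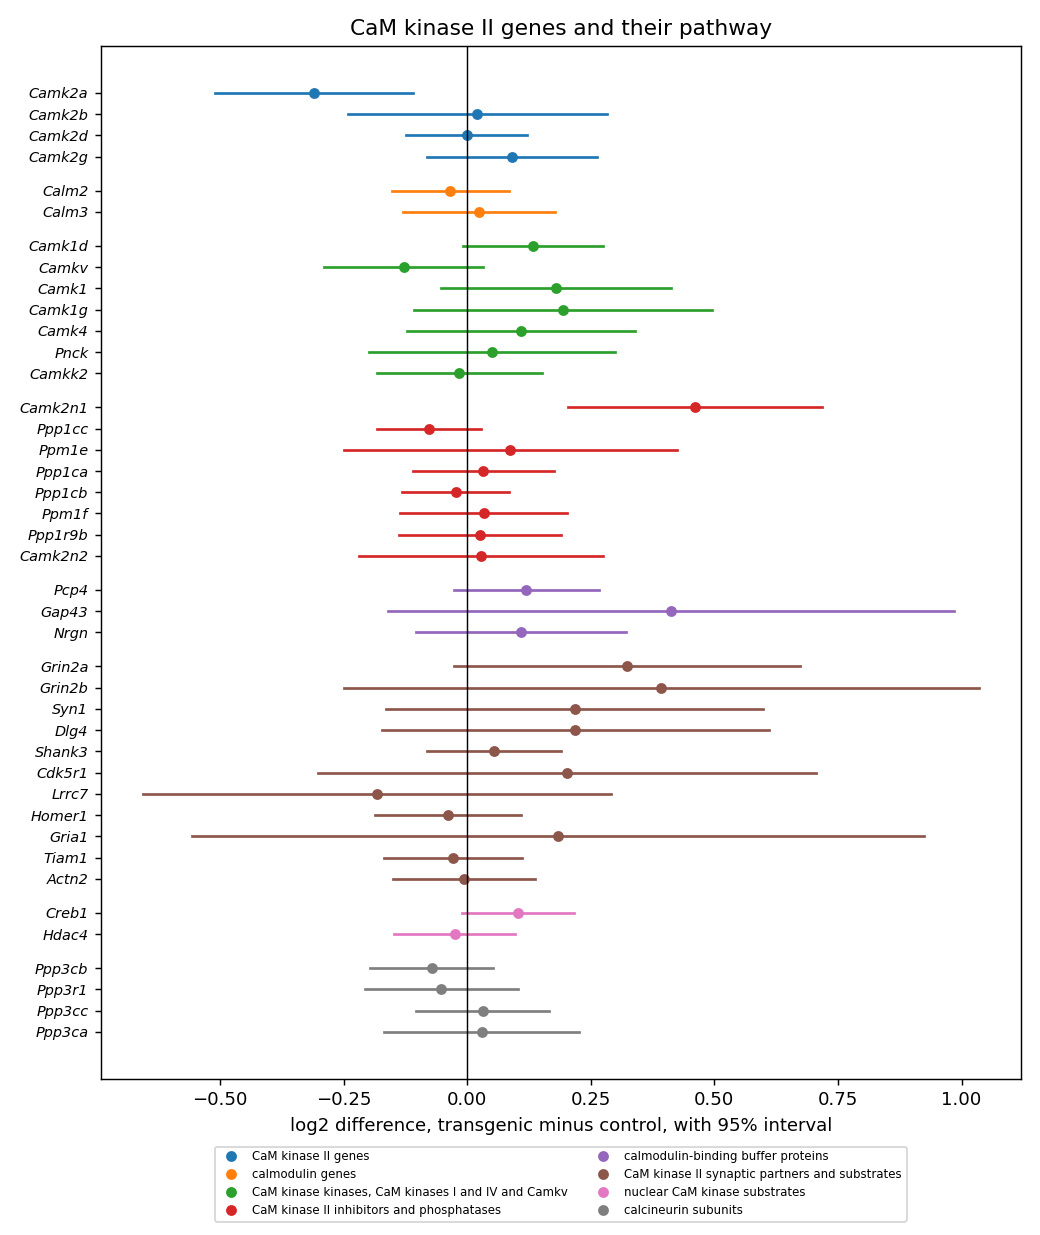
Log2 difference, transgenic minus control, with its 95% interval from limma (n = 5 per group) for the 4 CaM kinase II genes and 37 pathway genes, coloured by list. The intervals of Camk2a (-0.51 to -0.11) and Camk2n1 (0.20 to 0.72) do not reach 0 before adjustment; no gene passed after adjustment over all genes.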

How the data were processed

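The authors deposited 35556 log2 intensities for each of 10 arrays. The submitters' processing notes name Affymetrix Expression Console; its version, algorithm and settings are not given in the sources used here. Near-equal medians show normalization between arrays, and nothing further was applied. A single gene was named by 21789 probe sets, several genes by 1621, and no gene by 12146. Names were updated through gene identifiers and accessions with RefSeq (GRCm38.p6), and the probe set with the highest mean stood for each of 19936 genes. Probe sequences were not used here, so cross-reaction between members was not examined.

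Groups were taken from the titles and compared with limma 3.58.1 in R 4.3.3 (two-sided, group as the only term, p adjusted by Benjamini-Hochberg across the 19936 genes, threshold 0.05), which was tested on simulated data. The labels do not say that embryos of a number are paired. Relations over embryos used 100000 permutations. Deviations from group means were shuffled across both groups, so their permutation p are approximate. The members and gene lists were chosen with earlier results of these data known. Named genes were the members, Foxo3, up to 4 genes of smallest p in each pathway list, and the 5 genes most like each member, clone names skipped. Camk2n2 and the marker genes were named outside that rule. The fit was repeated without each embryo, with the replicate block, with trended robust variances, with array weights, after quantile normalization or median centring, without genes under the 40th percentile, on means of probe sets, and on every probe set. Relations without control embryo 5 were added after the data were seen. The number of arrays limits the precision.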

Additional observations from a re-analysis of the deposited data

Results flagged for a closer look

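Control embryo 5 lay apart from the other 4 controls in Camk2b, at 5.39 against 5.80 to 5.93. It did so as well in the mean of the 14 pan-neuronal markers, at 7.27 against 8.23 to 8.52. These were the only gaps past Dixon's 95% critical value of 0.71 among 90 groups of 5 embryos, covering the members, the named pathway genes and the list means; chance alone flags about 1 group in 20.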

How the results depend on the processing

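Camk2a, Camk2g, Foxo3 and Camk2n1 kept their direction in all 18 alternatives, and none of them had an adjusted p below 0.05 in limma there. Some alternatives could not change these differences, and only the adjusted p could differ in them. These were the replicate block, trended robust variances, the fit without genes under the 40th percentile, means of probe sets and every probe set. Over 10 fits that each left out 1 embryo, the difference ran from -0.37 to -0.26 for Camk2a, from -0.075 to 0.071 for Camk2b, from -0.030 to 0.032 for Camk2d and from 0.038 to 0.14 for Camk2g. Camk2b turned to -0.021 with array weights; the cause was not tested. Camk2d, at -0.00069, turned positive in 5 of the 10 fits, at 0.032 without transgenic embryo 2, 0.0027 without transgenic embryo 3, 0.0094 without transgenic embryo 4, 0.0094 without control embryo 1 and 0.0084 without control embryo 4. No member passed in any alternative.

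The number of genes past the threshold was 21, and 7 to 58 over the fits that left out 1 embryo. It was 39 with array weights and 9 when all probe sets were tested; the cause was not tested. It was 2 with the replicate block, where Camk2a had the same difference and an adjusted p of 0.545 in limma. Deviations of embryos with the same number correlated between -0.25 and 0.24, and 0 of 5 transgenic embryos correlated best with the control of their number. With so few embryos this check cannot exclude pairing. The numbers were not taken as pairs because the labels do not say that they are. Without the 2 farthest embryos r turned to -0.050 for Camk2a with Camk2b, 0.11 for Camk2a with Camk2g, -0.013 for Camk2b with Camk2g and 0.44 for Camk2a with the neuronal mean. As deviations from group means it turned to 0.23 for Camk2a with Camk2g and 0.44 for Camk2a with the neuronal mean, and the latter was 0.23 without control embryo 5.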
